A study of Rattus norvegicus with 3 samples.

Results

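Amino acids and the transmitters made from them enter and leave brain cells through solute carriers of the plasma membrane. The genes examined here are those of the families SLC1, SLC3, SLC6, SLC7, SLC36 and SLC38, found by the start of their gene symbol. The rule took 59 of the 30957 genes listed in each file, with 1 row for each symbol. Of these, 58 encode transporters or their chains, and Slc7a6os is a gene next to Slc7a6 that only shares its name. The RNA came from motor cortex. It was taken from 3 rats, all male and of the Sprague-Dawley strain, after cerebral ischemia and reperfusion, in which the blood supply of the brain is lost and then restored. All 3 carry the label 8 weeks, which can be an age or a time after the operation. The animals, numbered 19, 35 and 70, are the study's 1 group; controls were not analysed here. Each rat is therefore described beside the other 2, and no test between groups was possible.

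Several of these carriers set how long a transmitter acts. SLC1 carriers remove glutamate from the synaptic cleft, mostly into astrocytes, and carriers of SLC6 take back GABA, glycine, monoamines, taurine and creatine. Astrocytes turn glutamate into glutamine, which leaves them and enters neurons through carriers of SLC38. Most SLC7 carriers are light chains that reach the membrane only when bound to a heavy chain of SLC3, and they exchange one amino acid for another. After ischemia these carriers matter because glutamate can leave cells through them when ion gradients fail.

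Levels are in FPKM, which divides the fragments of a gene by its length in kilobases and by the library's fragments in units of 1000000. They are given for rats 19, 35 and 70 in this order unless a rat is named. The depth read from the low values was 15560000, 16460000 and 16050000 fragments. It can differ from the sequenced depth, because a normalization of unstated method came before FPKM. Rat 35 stood apart from the others in the markers of cell types. Neuron markers summed to 1253, 56.0 and 1829 FPKM, and all 8 were lowest in rat 35. Slc17a7, which loads glutamate into vesicles of cortical excitatory neurons and serves as a check of the tissue label, was at 324, 12.2 and 383. It was 31.5-fold lower in rat 35 than in rat 70, so in rat 35 this gene does not bear out the label. Astrocyte markers summed to 3176, 1001 and 2076, with 6 of 8 lowest in rat 35. Microglia and macrophage markers summed to 629, 1943 and 498, and all 8 were highest in rat 35, as were the 6 fibroblast and meningeal markers at 1 FPKM or more (summed 276, 2866 and 268, with Col1a2 listed at 0 in every rat). The 5 endothelial markers summed to 130, 225 and 101 and were highest in rat 35 too. Choroid plexus markers summed to 39.9, 6.83 and 369, of which Ttr gave 33.1, 0.173 and 362. Oligodendrocyte markers summed to 4031, 3305 and 5447. In these bulk samples fewer cells of a type and less RNA per cell cannot be told apart, and the part of cell composition in the values that follow was not tested.

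Of the 58 transporter genes, 38 had a mean of 1 FPKM or more, the minimum used for counts. Slc7a3 was the lowest above this line with a mean of 3.01 FPKM, and Slc38a4 the highest below it with 0.777 FPKM. A gene is called over 2-fold apart when its highest and lowest rat differ by more than 1 in log2(FPKM + 1), a scale that understates differences of low genes. By this measure 27 of the 38 transporters were over 2-fold apart, beside 42.5% of 14134 genes in the whole data. The number fell to 10 without rat 35 (11.1% of all genes), 16 without rat 70 (26.0%) and 24 without rat 19 (37.2%). The median distance was 1.40 for the transporters and 0.86 for all genes.

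**Figure D1:**
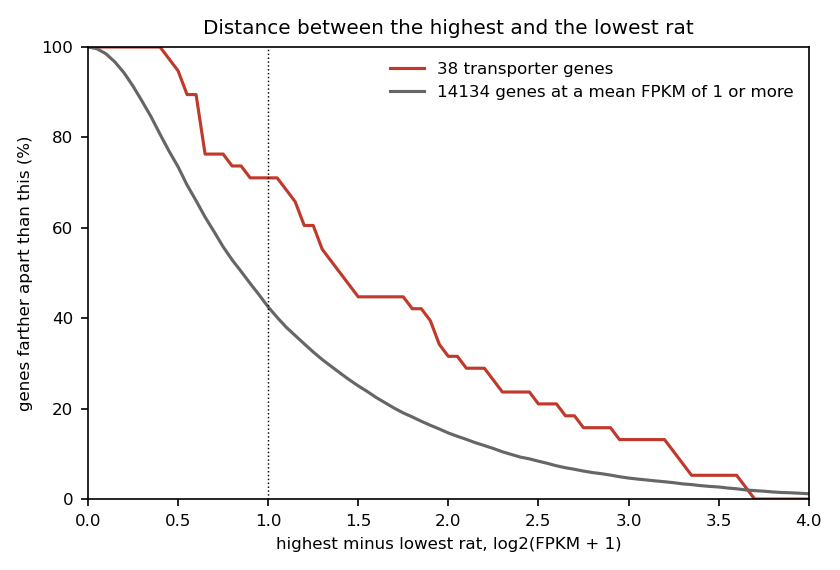
Share of genes (vertical axis, percent) whose highest and lowest rat lay farther apart than the distance on the horizontal axis, in log2(FPKM + 1), for the 38 transporters and for all 14134 genes at a mean of 1 FPKM or more. The dotted line marks a distance of 1, which 27 transporters and 42.5% of all genes exceeded.

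Most transporters had rat 35 at one end of their range, as did most genes. Rat 35 was the lowest for 17 of 38, beside 36.5% of all genes, and the highest for 14 of 38, beside 45.4%. Rat 70 was the lowest for 15, beside 44.2%, and the highest for 18, beside 29.8%. Rat 19 was the lowest for 6, beside 19.3%, and the highest for 6, beside 24.8%. Of the 38, 12 were both over 2-fold apart and lowest in rat 35 (18.7% of all genes), and 11 were over 2-fold apart and highest there (20.6%). For rat 70 these counts were 10 (19.0%) and 14 (14.0%), and for rat 19 they were 5 (4.80%) and 2 (7.87%). On the narrower base of genes over 2-fold apart, 12 of 27 transporters and 2646 of 6008 genes were lowest in rat 35. Highest there were 11 transporters and 2918 genes. For rat 70, 10 and 2683 were lowest and 14 and 1977 highest. For rat 19, 5 and 679 were lowest and 2 and 1113 highest. The median deviation of the 38 genes from their own 3-rat mean was -0.019, -0.018 and 0.093 (log2), beside 0.019, 0.063 and -0.085 for all genes. This value was not stable, since at a minimum of 5 FPKM it was -0.22 in rat 35 and 0.25 in rat 70, and with Slc7a6os counted it was -0.16 and 0.21. Fragment counts were recovered from the FPKM values as the smallest whole numbers that fit all 3 rats, so they are lower limits. They ran between 17 and 8632 for a transporter in a rat. The exact 95% Poisson intervals of the highest and lowest rat were apart for all 38 genes, which covers counting error only. No share over all genes stands beside this count, so it does not set the transporters apart from other genes.

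**Figure D2:**
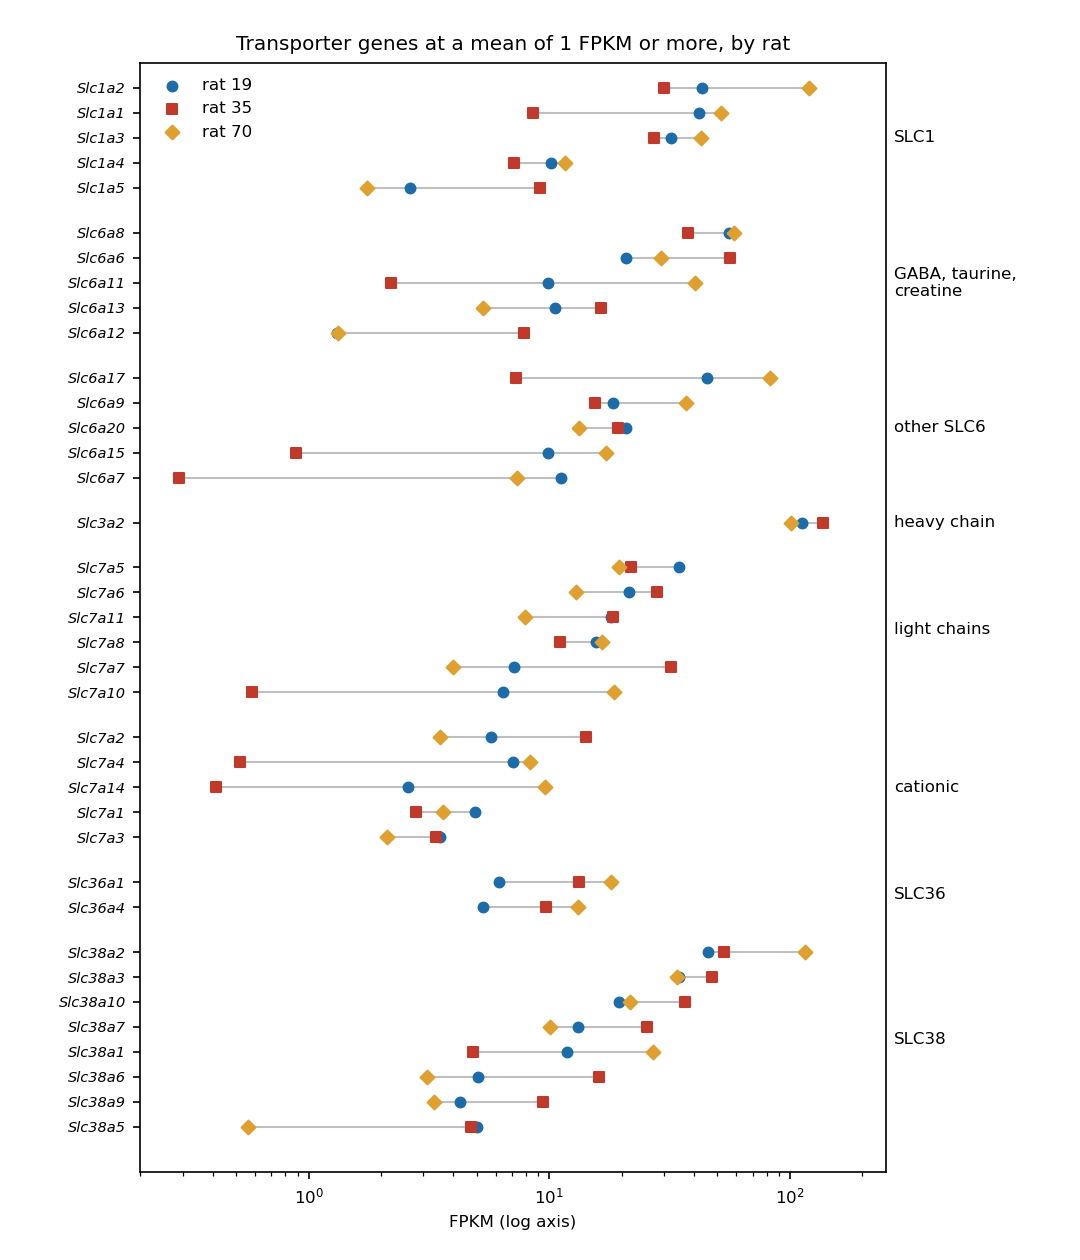
FPKM (log axis) of all but 1 of the 38 transporter genes at a mean of 1 FPKM or more in rats 19, 35 and 70, grouped by role, each grey line joining the lowest and the highest rat. Rat 35 sits at the far left for Slc6a7, Slc6a15, Slc6a11 and Slc7a10 and at the far right for Slc7a7, Slc1a5 and Slc6a12.

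Among glutamate transporters the gene of the astrocyte carrier GLT-1 had the highest listed FPKM, by a wide margin only in rat 70. It was near Slc1a1 in rat 19 and near Slc1a3 in rat 35, and its rank depends on the gene length used. The 3 main carriers did not keep the same proportions. Slc1a2, which encodes GLT-1 (chromosome 3, 92640752 to 92665644, Rnor 6.0), was at 43.1, 30.1 and 119.7 FPKM (64.3 ± 48.4, SD, n = 3). Rat 70 was 2.78-fold above the next rat, while rats 19 and 35 were close. Slc1a3, which encodes the other astrocyte carrier GLAST (chromosome 2, 57860834 to 57935363), was at 32.2, 27.2 and 42.6 FPKM (34.0 ± 7.87), a 1.57-fold range. The neuronal carrier gene Slc1a1 (chromosome 1, 246954980 to 247037056), whose product EAAC1 also brings cysteine into neurons, was at 42.0, 8.60 and 51.9 FPKM (34.2 ± 22.7). Rat 35 stood alone at the low end of this gene, 6.04-fold below rat 70. Slc1a1 therefore made up 35.8%, 13.1% and 24.2% of the summed FPKM of these carriers, and Slc1a3 made up 27.4%, 41.2% and 19.9%. The ratio of Slc1a2 to Slc1a3, both per kilobase, was 1.34, 1.11 and 2.81.

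The value of Slc1a2 may rest on a short gene model. The shortest length that gave whole fragments in all rats was 882 bp, the lowest among the 38 transporters, whose median was 3676 bp. That is less than the coding sequence of full-length GLT-1. A multiple of this length would fit as well, with counts larger in the same proportion, so the length and the counts of 591, 437 and 1694 fragments are lower limits. The comparison of Slc1a2 between rats does not depend on the length, whereas its level against other carriers does.

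The remaining SLC1 members carry neutral amino acids or were scarce. Slc1a4, the carrier of serine, alanine and cysteine known as ASCT1, was at 10.1, 7.14 and 11.7 FPKM. ASCT2, the glutamine exchanger encoded by Slc1a5 (chromosome 1, 78710539 to 78724794), was at 2.64, 9.15 and 1.75 FPKM. The 2 genes thus ran in opposite directions, with Slc1a5 3.46-fold higher in rat 35 than in the next rat, and the ratio of Slc1a4 to Slc1a5 was 3.84, 0.781 and 6.66. The ratio of Slc1a5 to the phagocyte receptor gene Csf1r varied less, at 0.0281, 0.0359 and 0.0255. Csf1r was chosen after its values were seen, and both genes were highest in rat 35 and lowest in rat 70. A steadier ratio therefore follows from the choice. Slc1a6 and Slc1a7, carriers known from Purkinje cells and the retina, stayed under 0.63 FPKM in every rat, at 0.534, 0.108 and 0.628 for Slc1a6 and at 0, 0.169 and 0 for Slc1a7.

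GABA carriers did not share 1 order of rats. Slc6a11, which encodes the astrocyte carrier GAT3 (chromosome 4, 146106386 to 146223228), was at 9.93, 2.20 and 40.5 FPKM (17.6 ± 20.3, SD, n = 3), an 18.4-fold range with rat 35 lowest. Slc6a11 was 4.08-fold higher in rat 70 than in rat 19. The 8 astrocyte markers were divided between these rats, with 4 highest in rat 70, such as the aldolase gene Aldoc at 194, 42.2 and 317 FPKM, and 4 highest in rat 19, such as the water channel gene Aqp4 at 113, 54.6 and 16.9 FPKM. Slc17a6, a vesicular glutamate transporter gene used by many neurons of the thalamus, was at 1.73, 0.0147 and 28.7 FPKM. Whether the tissue taken differed between rats was not tested, for Slc6a11 or for the other transporters highest in rat 70.

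Slc6a13 and Slc6a12 are neighbours on chromosome 4, 8.96 kb apart. The first encodes GAT2, known from the meninges, and was at 10.6, 16.5 and 5.31 FPKM (10.8 ± 5.59). The second encodes BGT1, a betaine and GABA carrier that cells use against osmotic stress, and was at 1.31, 7.89 and 1.33 FPKM. Rat 35 was the highest for both, 5.94-fold above the next rat for Slc6a12. The fibroblast gene Dcn was also highest in rat 35, at 40.9, 278 and 23.5 FPKM. Slc6a13 did not keep a constant ratio to Dcn, at 0.258, 0.0594 and 0.226.

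Taurine and creatine carriers differed in their spread. Slc6a6, the taurine carrier gene (chromosome 4, 123642210 to 123713464), was at 20.9, 56.3 and 29.1 FPKM (35.5 ± 18.5), with rat 35 1.93-fold above the next. Slc6a8, the creatine carrier gene (chromosome X, 157129987 to 157139291), was at 56.0, 37.8 and 58.5 FPKM (50.8 ± 11.3), a 1.55-fold range. A list of 6 genes held those of creatine and taurine synthesis and 2 creatine kinase genes, which are not genes of synthesis. In it 3 were over 2-fold apart, near the 42.5% of all genes. These were Ckmt1b and the synthesis genes Gamt (35.0, 23.5 and 8.48) and Cdo1 (28.1, 8.34 and 66.2). Ckb, the cytosolic creatine kinase gene, was at 740, 673 and 798, whereas Ckmt1b, a mitochondrial creatine kinase gene, was at 49.1, 2.69 and 46.5.

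Carriers of glycine, proline and neutral amino acids in SLC6 included the member with the widest fold range. Slc6a7, which encodes the proline carrier of excitatory terminals (chromosome 18, 56305735 to 56331991), was at 11.2, 0.291 and 7.33 FPKM, a 38.5-fold range. In rat 35 this rested on 34 fragments at this lower limit, with an exact 95% Poisson interval of 0.201 to 0.406 FPKM. Slc6a15, a neuronal carrier of branched-chain amino acids and proline, was at 9.85, 0.890 and 17.2 FPKM. Slc6a17, which encodes a carrier of synaptic vesicles (chromosome 2, 210249663 to 210299770), was at 45.3, 7.25 and 83.1 FPKM (45.2 ± 37.9). Rat 35 was far below the other 2 for each of these, as it was for the neuron markers. The distance was not equal, though. The ratio to the synaptic gene Snap25 was 0.118, 0.596 and 0.147 for Slc6a17 and 0.110, 0.707 and 0.0919 for Slc1a1, but 0.0293, 0.0239 and 0.0130 for Slc6a7.

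Glycine carriers were represented by Slc6a9, which encodes GlyT1, mostly of astrocytes, at 18.3, 15.5 and 36.9 FPKM (23.6 ± 11.6). Rat 70 stood 2.01-fold above rat 19. The gene of the neuronal glycine carrier GlyT2, Slc6a5, known from the brainstem and spinal cord, was at 0.882, 0 and 0.475 FPKM. Slc6a20, an imino acid carrier gene, was at 20.7, 19.2 and 13.3 FPKM, one of 10 transporters with less than a 1.8-fold range. Of 9 genes of glycine breakdown and serine synthesis, 2 were over 2-fold apart, beside 42.5% of all genes. These were Shmt1, a serine hydroxymethyltransferase gene, at 3.55, 8.94 and 2.53, and the glycine decarboxylase gene Gldc at 12.4, 3.62 and 6.14. Psat1, a serine synthesis gene with the highest mean of the list, was at 64.6, 32.3 and 63.8.

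Monoamine carriers were nearly absent from the listed values. Slc6a3 and Slc6a4, which encode the dopamine and serotonin carriers, were listed at 0 in all rats, and Slc6a2, which encodes the noradrenaline carrier, was at 0.0819, 0.0774 and 0.00992 FPKM. The cell bodies that make these transcripts lie outside the cortex. Markers of monoamine neurons summed to 2.82, 0.996 and 2.78 FPKM over 6 genes, none with a mean of 1 FPKM. An exact 0 in these files can be a failed estimate and not an absence.

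**Figure D3:**
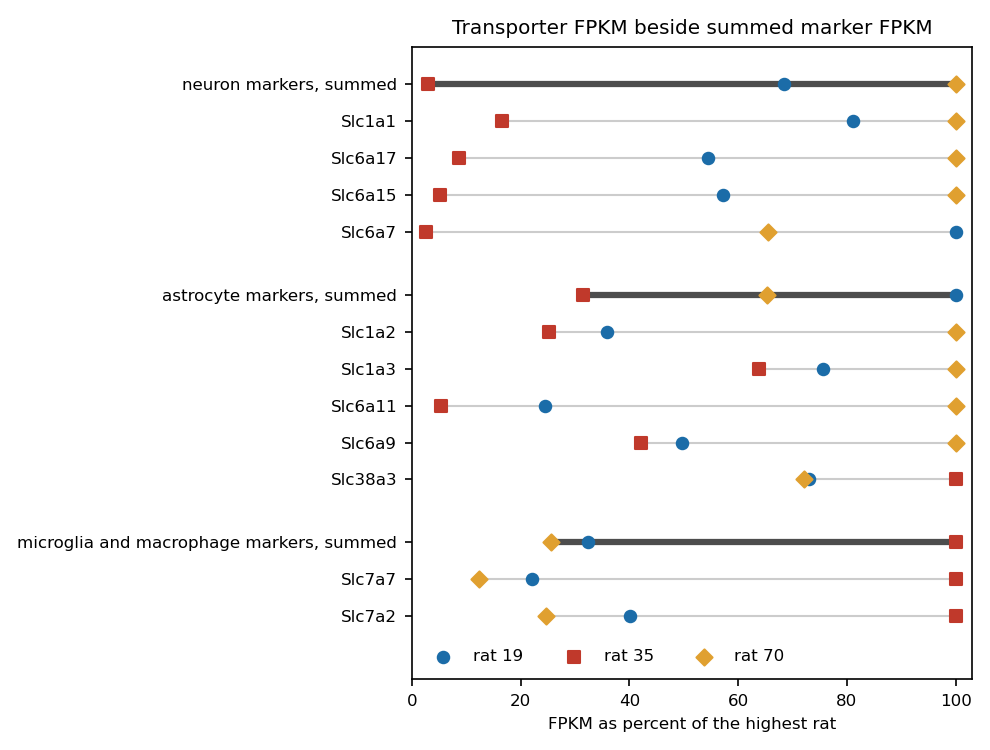
FPKM as a percent of the highest rat for transporters placed by the cell type they are best known from, each set below the summed FPKM of that cell type's markers (thick line). The genes were placed after their values were seen. Neuron markers and Slc1a1, Slc6a17, Slc6a15 and Slc6a7 have rat 35 lowest, while Slc1a3 and Slc38a3 stay within a 1.57-fold and a 1.39-fold range and Slc6a11 does not.

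Among the heteromeric exchangers the heavy chain had a narrow range. Of its 6 light chains at 1 FPKM or more, 4 were over 2-fold apart, beside 42.5% of all genes. The number was 2 without rat 35 (11.1% of all genes), 2 without rat 70 (26.0%) and 4 without rat 19 (37.2%). Slc7a6 and Slc7a11, among the 4, fell under the 2-fold line in at least 1 scaling each. Slc3a2, which encodes the heavy chain CD98 (chromosome 1, 224906554 to 224921092), was at 113, 138 and 101 FPKM (117 ± 18.8, SD, n = 3), the highest mean of the 38 genes. It had the highest FPKM of the transporters in rats 19 and 35. In rat 70 Slc1a2 was listed highest at 119.7 FPKM, with Slc38a2 close at 116.0, and this rank depends on the length used for Slc1a2. The light chains summed to 104, 114 and 80.1 FPKM, and Slc3a2 stood at 1.08, 1.21 and 1.26 times this sum. The other heavy chain gene, Slc3a1, known from kidney and intestine, was at 0.274, 0.181 and 0.0531 FPKM.

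Light chains changed places between rats. Slc7a5, which encodes LAT1, the carrier of large neutral amino acids at the blood-brain barrier (chromosome 19, 54693959 to 54722563), was at 34.5, 21.9 and 19.5 FPKM (25.3 ± 8.07). It led the light chains in rats 19 and 70. In rat 35 the leader was Slc7a7, which encodes y+LAT1, a carrier of cationic and neutral amino acids in macrophages and epithelia (chromosome 15, 33013504 to 33051129), at 7.12, 32.2 and 3.99 FPKM (14.4 ± 15.5). It took 6.84%, 28.3% and 4.99% of the light chain sum, and its ratio to Csf1r was 0.0757, 0.126 and 0.0582. Slc7a6, which encodes the related y+LAT2, was at 21.4, 28.1 and 12.9 FPKM, and Slc7a8, the gene of LAT2, at 15.7, 11.1 and 16.6. Slc7a7 and Slc7a8, 318 kb apart on chromosome 15, thus had opposite extremes.

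The widest light chain was Slc7a10, which encodes Asc-1, an exchanger of glycine and D-serine, co-agonists of the NMDA receptor (chromosome 1, 91433030 to 91448564). It was at 6.44, 0.583 and 18.7 FPKM (8.56 ± 9.22), a 32.0-fold range over 188, 18 and 562 fragments. In rat 35 the exact 95% Poisson interval was 0.345 to 0.921 FPKM, below both other rats. Asc-1 made up 6.18%, 0.512% and 23.3% of the light chain sum.

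**Figure D4:**
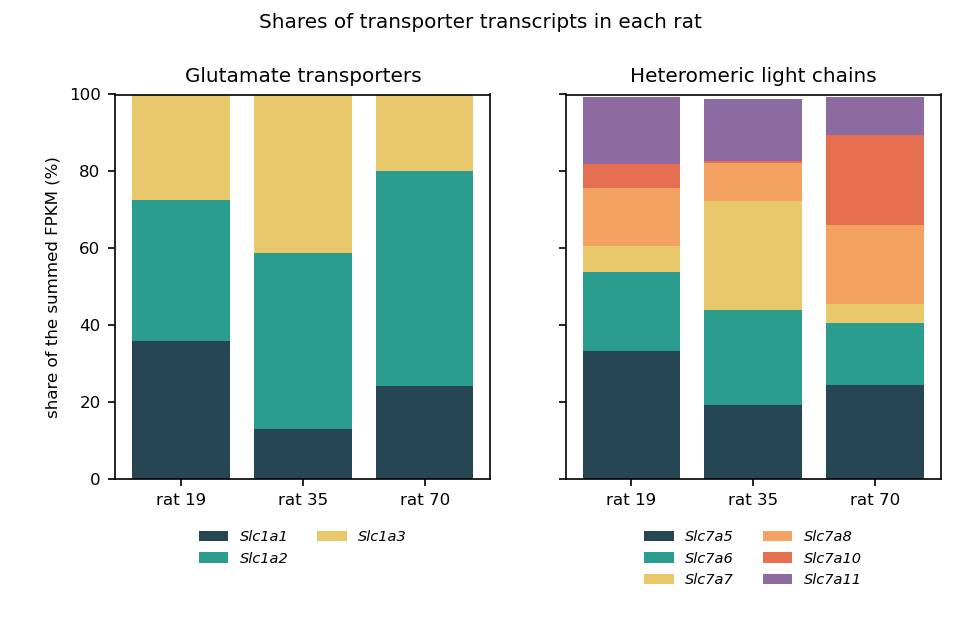
Share (percent, bars stacked from 0) of each gene in the summed FPKM of 3 glutamate transporters and of the heteromeric light chains in rats 19, 35 and 70. Slc1a1 made up 13.1% of the glutamate transporter sum in rat 35, against 35.8% in rat 19 and 24.2% in rat 70, and Slc7a7 made up 28.3% of the light chain sum in rat 35. Light chain bars stop just short of 100% because the scarce Slc7a9 and Slc7a15 are not drawn.

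Slc7a11 encodes xCT, which takes up cystine for glutathione and releases glutamate (chromosome 2, 139453774 to 139528162). It was at 18.1, 18.4 and 7.97 FPKM (14.8 ± 5.94). Rats 19 and 35 lay together and rat 70 was 2.27-fold below rat 19. Of 6 genes listed around glutathione synthesis, 3 were over 2-fold apart, near the 42.5% of all genes. These were Ggt7, Nfe2l2 and Chac1 (4.22, 1.01 and 6.16), none of them a gene of a synthesis enzyme. The synthesis genes Gclc, Gclm and Gss (9.36, 14.4 and 7.35) were under that line, and those of the rate-limiting enzyme had narrow ranges. Gclc was at 22.5, 26.6 and 23.6, and Gclm at 11.8, 11.4 and 14.6. Nfe2l2, the antioxidant regulator NRF2, was at 30.8, 59.3 and 20.0. The widest of the list was Ggt7, of the gamma-glutamyltransferase family, at 37.7, 4.81 and 50.7.

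Cationic amino acid carriers divided by gene. Slc7a2, whose product CAT2 brings arginine into activated macrophages (chromosome 16, 54460067 to 54513349), was at 5.73, 14.3 and 3.52 FPKM, highest in rat 35. Slc7a1, the broadly used CAT1 gene, was at 4.93, 2.79 and 3.63 FPKM, and Slc7a3, which encodes CAT3, at 3.51, 3.39 and 2.12. Both kept within a 1.77-fold range. The other relatives, Slc7a4 and Slc7a14, were lowest in rat 35 as the neuron markers were. Slc7a4 was at 7.10, 0.516 and 8.29 FPKM, and Slc7a14, which encodes a lysosomal protein of neurons, at 2.59, 0.411 and 9.63.

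Glutamine carriers of SLC38 did not share 1 order of rats. Slc38a2, which encodes SNAT2, a carrier induced when amino acids run short (chromosome 7, 138088649 to 138100841), was at 45.7, 53.1 and 116.0 FPKM (71.6 ± 38.6). Slc38a1, its neighbour 48.7 kb away, encodes SNAT1 of neurons and was at 11.9, 4.84 and 27.1 FPKM (14.6 ± 11.4). Both were highest in rat 70, but the lowest was rat 19 for Slc38a2 and rat 35 for Slc38a1. Slc38a3 encodes SNAT3, by which astrocytes release glutamine (chromosome 8, 116406241 to 116422366), and was at 34.6, 47.3 and 34.1 FPKM (38.7 ± 7.50). The ratio of Slc38a1 to Slc38a3 was 0.343, 0.102 and 0.794. Slc38a5, the gene of the related SNAT5, was at 4.99, 4.75 and 0.560 FPKM. Rat 70 alone was low there, with 17 fragments against 147 and 148 in rats 19 and 35.

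Members of SLC38 that act in the lysosome were highest in rat 35. Slc38a9, whose product reports lysosomal arginine to the growth kinase mTORC1, was at 4.26, 9.39 and 3.33 FPKM. Slc38a7, which encodes a lysosomal glutamine exporter, was at 13.2, 25.5 and 10.1. Slc38a6 (5.07, 16.1 and 3.09) and Slc38a10 (19.5, 36.6 and 21.7) were also highest in rat 35. The proton-coupled carriers had another order, lowest in rat 19 and highest in rat 70. Slc36a1, found on lysosomes and the plasma membrane, was at 6.17, 13.2 and 18.0 FPKM, and Slc36a4, a carrier gene for proline and tryptophan, at 5.29, 9.69 and 13.2.

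The enzymes and vesicular carriers that work with these transporters were mostly lowest in rat 35. Of 13 genes of glutamate, glutamine and GABA handling at 1 FPKM or more, 10 were over 2-fold apart, beside 42.5% of all genes, and 10 were lowest in rat 35, beside 36.5%. Gad1, which makes GABA, was at 27.6, 1.78 and 37.4 FPKM. Glul, the astrocyte glutamine synthetase gene, ran otherwise, at 763, 1118 and 970 FPKM, so that the ratio of Slc1a2 to Glul was 0.0564, 0.0269 and 0.123.

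Shortage of amino acids is known to act on several carrier genes through the factor ATF4, which binds composite elements in promoters. Among 9 such response genes at 1 FPKM or more, 3 were over 2-fold apart, beside 42.5% of all genes. The Atf4 transcript was level at 131, 139 and 136 FPKM, whereas Asns, which makes asparagine, was at 14.9, 6.56 and 31.4. The ATF4 protein and its activity were not measured here. Promoter windows from RefSeq (build GRCr8) were held for 27 of the 38 transporters, in 31 windows of 300 bases. The letters TGATGNAA, searched on both strands, stood in 3 of these windows (9.68%), beside 3.98% of 33469 windows of all genes. These 3 are shown because they are the transporter windows with that element. Each line gives the 250 bases before the start site, 5′ to 3′ in the direction of the gene, with the match in capitals.
Slc1a4, chr14:98761563-98761812, minus strand: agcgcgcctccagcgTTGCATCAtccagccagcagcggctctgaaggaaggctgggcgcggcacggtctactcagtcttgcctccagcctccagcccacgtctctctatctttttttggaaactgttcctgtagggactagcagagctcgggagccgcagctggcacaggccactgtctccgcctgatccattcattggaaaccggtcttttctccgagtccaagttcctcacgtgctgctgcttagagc
Slc38a1, chr7:129681402-129681651, minus strand: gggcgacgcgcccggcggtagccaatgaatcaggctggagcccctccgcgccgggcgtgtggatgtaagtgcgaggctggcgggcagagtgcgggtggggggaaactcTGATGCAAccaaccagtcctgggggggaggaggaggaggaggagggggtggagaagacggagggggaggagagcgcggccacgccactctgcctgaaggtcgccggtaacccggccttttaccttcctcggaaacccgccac
Slc7a1, chr12:11664238-11664487, plus strand: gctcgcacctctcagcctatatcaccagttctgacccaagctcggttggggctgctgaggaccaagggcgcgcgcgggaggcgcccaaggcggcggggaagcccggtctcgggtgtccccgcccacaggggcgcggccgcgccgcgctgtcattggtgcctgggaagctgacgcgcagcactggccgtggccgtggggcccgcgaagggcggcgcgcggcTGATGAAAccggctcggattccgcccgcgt
Of these, Slc1a4 and Slc38a1 were highest in rat 70 and Slc7a1 in rat 19. All 3 were lowest in rat 35, as were 17 of the 38 transporters. The antioxidant element TGACNNNGC stood in 7 of the 31 windows (22.6%), beside 12.1% of all windows, those of Slc36a1, Slc38a2, Slc3a2, Slc6a11, Slc6a6, Slc7a1 and Slc7a7. The window held for Slc7a11 had neither motif. A match is a description of the letters and not a bound site.

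The other 20 genes of the rule were under a mean of 1 FPKM. The highest single value among them was 1.07 FPKM, of Slc38a4 in rat 19. Listed at 0 in every rat were 7 genes, Slc6a3, Slc6a4, Slc6a14, Slc6a18, Slc7a12, Slc7a13 and Slc36a2. The remainder not yet named were Slc6a16, Slc6a19, Slc7a9, Slc7a15, Slc36a3, Slc38a8 and Slc38a11. Slc7a6os, which met the rule by name only, was at 13.5, 10.5 and 17.3 FPKM and enters no count of transporters.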

How the data were processed

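Per the labels, the authors tallied fragments for every gene, applied a normalization whose method the sources do not give, and derived FPKM from it; these deposited FPKM values, 1 file per rat, are the data used. The submitters' processing notes list HISAT2 2.0.4, StringTie 1.3.0 and Rnor 6.0 with no roles. Gene positions are the files' own. No count model was applied. Distances used log2(FPKM + 1) and were tested on simulated data. With 1 group of 3 rats, each taken as 1 animal by its number, no test was run, and mean ± SD (n = 3) describes the spread between animals.

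Depth came from genes whose span is under 6000 bp and equals the counted length. One fragment on 1 kb equalled 0.0643, 0.0608 and 0.0623 FPKM in rats 19, 35 and 70. A transporter's length was the shortest from 200 to 20000 bp that made its fragments whole in every rat to within 0.005. Intervals are exact Poisson at 95%.

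Members, lists and markers were chosen with earlier results of these data known. Every transporter at a mean of 1 FPKM or more is named, except 1 that enters the counts and is not reported here. From each related list the text names the genes with the highest mean and the widest spread. Gad1, Gldc, Gclc, Gclm, Gss, Chac1, Gamt, Cdo1, Aqp4, Aldoc, Dcn, Csf1r and Slc17a6 were added after their values were seen. Other promoter letters searched were GAGGAAGT (0 of 31 windows, 2.42% of all), TGACGTCA (1 window, 1.83%) and TATAAA (2 windows, 14.2%). Alternatives were another pseudocount, another minimum, 3 scalings and leaving out each rat. Python 3.11.15, numpy 2.4.6, pandas 2.3.3, scipy 1.17.1 and matplotlib 3.10.9 were used.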

Additional observations from a re-analysis of the deposited data

How the results depend on the processing

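The count of transporters over 2-fold apart was 27 as reported and ran from 10 to 24 when 1 rat was left out; it was 23 of 32 at a minimum of 5 FPKM (40.9% of all genes), 27 of 51 with no minimum (32.8%), 27 of 38 at a pseudocount of 0.1 (49.3%), 26 of 40 at a common sum (45.5%), 25 of 38 by median of ratios (41.6%) and 26 of 38 without mitochondrial genes (41.5%). The median deviation of the transporters, reported as -0.019, -0.018 and 0.093 in rats 19, 35 and 70, is small and took either sign. It was 0.068 in rat 19 at a pseudocount of 0.1. At a minimum of 5 FPKM it was -0.22 in rat 35 and 0.25 in rat 70, and with no minimum 0.063 and -0.064. Rat 70 was at 0.18 after median-of-ratios scaling. With mitochondrial genes left out, rats 35 and 70 were at -0.16 and 0.18. With 1 rat left out it ran from -0.035 to 0.041 in rat 19, from -0.17 to -0.041 in rat 35 and from 0.035 to 0.17 in rat 70. The cause was not tested. When every library was set to a common sum of 1000000, the median gene moved by 0.80, 0.85 and 0.96 (log2), and leaving out mitochondrial genes lowered it in rat 35 (-0.14), with 46.0% of all genes then lowest in rat 35, beside 18 of 38 transporters. Rescaling changed which rat was lowest for Slc38a3, Slc3a2 and Slc7a5 and which was highest for Slc7a11, in at least 1 scaling each. No paired analysis was possible because there is 1 group. Slc7a6 fell under the 2-fold line in all 3 scalings and Slc7a11 after median-of-ratios scaling. No control group and 3 animals limit what these values can show.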
